A study of Mus musculus with 12 samples.

Results

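Ic neurons are one of the 3 classes of type I spiral ganglion neurons of the mouse cochlea. Here they are the 226 cells of the Ic set among 1187 neurons on 4 plates, 2 of the embryonic stage E18.5 and 2 of postnatal day 3 (P3). The cells were selected on measured values. A well was kept with more than 1000 genes detected and under 5% of its counts on the added ERCC control RNAs, which left 1263 of the wells on these 4 plates. L is the natural logarithm of 1 plus the counts of a gene per 10000 counts of the cell. A cell was taken as a neuron when its mean L of *Nefl*, *Nefm*, *Stmn2*, *Stmn3* and *Ina* was above 1 and above its mean L of *Calml4*, *Lhx3* and *S100a1*, genes of hair cells. Each gene was then set on a z scale over the neurons of a stage. The Ic score is the mean z of *Ndst3*, *Hs3st2*, *Tmem100*, *Cygb* and *Flt3*, and a neuron entered the Ic set with a score above 0.3 that was also the highest of 4. The other 3 scores use *Amigo2*, *Cpne4*, *Kcns3*, *Igsf21* and *Fgf1* (Ia markers), *Pcdh7*, *Itga8*, *Tgm2*, *Crym* and *Negr1* (Ib markers), and *Ngfr*, *Rph3a*, *Efna5*, *Prune2* and *Lgmn* (type II markers), and the sets are called here by their first gene. The series as a whole holds 4608 wells on plates with a sample, so the Ic set is a small part of it.

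All 4 plates came from PVcre;Ai14 mice, in which Cre under the parvalbumin driver switches on the tdTomato reporter of the Ai14 allele. Red cells of the dissected spiral ganglion were sorted singly, after papain digestion, into wells of 384-well plates and sequenced with Smart-seq2, a method that reads whole polyadenylated transcripts. Animals were pooled, and the labels do not say whether the plates of a stage came from separate pools, so p-values measure only the spread between plates, which may be technical. The plates of E18.5 belong to one plate series and those of P3 to another. The paper took its P3 data from an earlier study of its authors, and it links different sorting plots at E18.5 to a change of facility. Stage, plate series and study cannot be told apart.

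Spiral ganglion neurons carry the signals of the hair cells to the brainstem. Type I neurons contact inner hair cells and fall into Ia, Ib and Ic, while type II neurons contact outer hair cells. In the adult, Ic neurons are known for high *Lypd1*, endings on the modiolar side of the inner hair cell, low spontaneous firing and high thresholds. The stages studied lie before the onset of hearing, when these synapses are being formed. Of the 5 genes of the Ic score, *Ndst3* and *Hs3st2* encode enzymes that place sulfate groups on heparan sulfate, *Tmem100* a small membrane protein, *Cygb* the globin cytoglobin and *Flt3* a receptor tyrosine kinase.

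Ic neurons numbered 55 of 341 and 60 of 345 neurons on the E18.5 plates, and 84 of 376 and 27 of 125 on the P3 plates. These shares are 16.1% (95% Clopper-Pearson interval 12.4 to 20.5), 17.4% (13.5 to 21.8), 22.3% (18.2 to 26.9) and 21.6% (14.7 to 29.8), and they averaged 16.8% ± 0.893 at E18.5 and 22.0% ± 0.524 at P3 (SD, n = 2 plates each). The z scale within a stage helps to set these shares, so they are a description. Ic cells had a median of 310832 and 434478 counts a cell on the E18.5 plates and 812014 and 1126130 on the P3 plates, with a median of 8866 to 9340 genes detected. ERCC counts took 0.0143% and 0.0187% of an Ic cell's counts in the median at E18.5 and 2.39% and 2.14% at P3. The sums over the Ic cells of a plate held 16998003 to 68740456 counts, and a floor of 3 counts in a single sum is 0.0436 to 0.176 counts a 1000000 (CPM). CPM values and folds below are further scaled by TMM factors, edgeR's library-size factors, over the sums of all sets. No kept cell had the same counts as another. Intervals and floors cover counting error only, since the libraries carry no molecule barcodes.

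The Ic scores of the members ran from 0.306 to 2.57 at E18.5 (median 0.713) and from 0.309 to 1.61 at P3 (median 0.635). Just inside the threshold lay scores of 0.306, 0.307 and 0.309, and just outside it, among neurons whose Ic score was also the highest of the 4, scores of 0.299, 0.290 and 0.288. The members led their next score by 0.598 in the median, 134 by over 0.5 and 16 by under 0.1. For 162 of the 226 the next score was that of the Pcdh7 set, for 36 that of the Ngfr set and for 28 that of the Amigo2 set. A Pcdh7 score that was itself above 0.3 was held by 51 members. Another 76 neurons had an Ic score above 0.3 but a higher score of another set. Within a plate the Ic score had a Spearman correlation with a neuron's counts of -0.0784 to 0.120 and with its glial marker share of -0.164 to -0.0655, over 125 to 376 neurons that share a library.

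**Figure D1:**
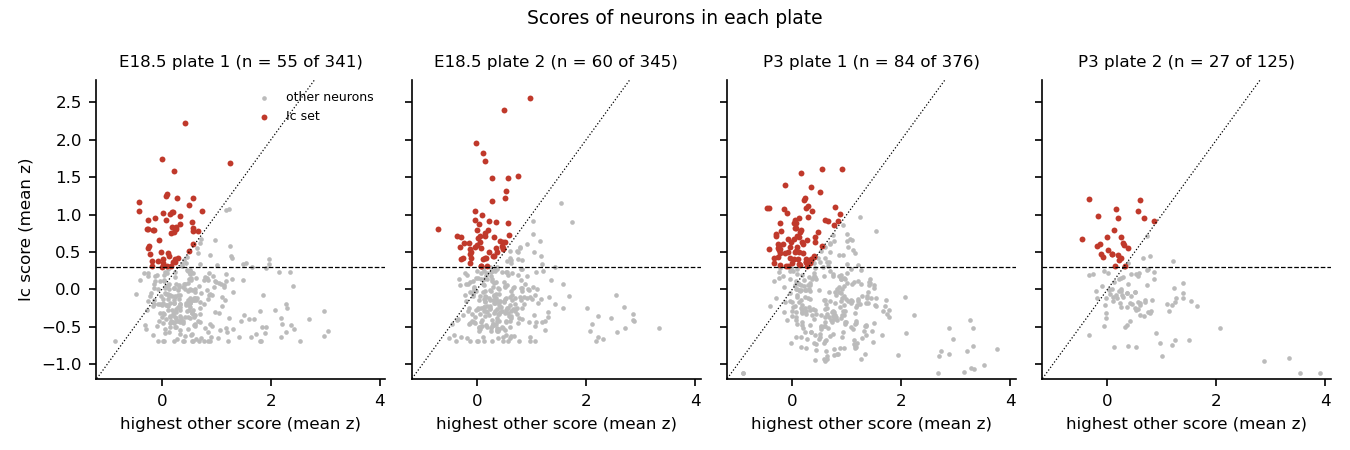
Ic score of each neuron (vertical axis, mean z) against the highest of its other 3 scores (horizontal axis, mean z), 1 panel a plate. Red points are the Ic set, grey points the other neurons, the dashed line is the threshold of 0.3 and the dotted line marks equal scores; members lie above both lines, and 16 of the 226 lead their next score by under 0.1.

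The genes of the score did not carry it evenly, which is given as a description because the rule used them. *Ndst3* stood at 60.0 and 86.6 CPM in the Ic sums of the E18.5 plates and 73.2 and 95.7 CPM at P3, against 11.6 and 10.1 and 12.9 and 28.8 CPM in the other 3 sets together. *Hs3st2* had the widest gap between the sets as a ratio, with 63.5, 53.4, 39.4 and 26.2 CPM in Ic neurons in the order of the plates and 4.21, 4.91, 3.27 and 1.67 CPM in the other sets. For *Tmem100* and *Cygb* the Ic sums were higher in each plate by less: *Cygb* had 51.6, 46.5, 93.8 and 83.2 CPM in Ic neurons and 27.8, 29.0, 63.8 and 55.7 CPM in the others. *Tmem100* did not separate the Ic and Amigo2 sets at E18.5. Its mean L there was 0.302 and 0.301 in Ic cells and 0.306 and 0.285 in the Amigo2 set. It was detected in 69.1% and 68.3% of these Ic cells and in 73.2% and 75.3% of the Amigo2 set. At P3 its mean L was 0.496 and 0.521 in Ic cells and 0.279 and 0.245 in the Amigo2 set. *Flt3* was low in Ic neurons at E18.5, with 11.5 and 10.4 CPM, and high at P3, with 123 and 121 CPM, where the other sets had 68.1 and 80.6 CPM too. At E18.5, 97 of 115 members had counts of 3 or more of the 5 genes, and at P3 all 111 had, with deeper libraries. *Ndst3* was detected in 80.0% and 88.3% of Ic cells at E18.5 and 84.5% and 92.6% at P3, in 60.0% to 78.0% of the cells of the Pcdh7 set and in 6.19% to 20.5% of those of the Amigo2 set. With each cell thinned to 100000 counts the shares in Ic cells were 76.4%, 86.4%, 75.9% and 92.6%, those in the Pcdh7 set 51.2% to 64.9% and those in the Amigo2 set 2.65% to 15.1%.

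Genes outside the rule were used to check the name. *Pou4f1*, the homeodomain factor Brn3a (mm10 chromosome 14, positions 104461675 to 104468118), was at 227 and 257 CPM in Ic neurons of E18.5 and 261 and 293 CPM at P3. The Pcdh7 set had 185, 130.2, 143.4 and 128 CPM in the order of the plates, and no plate exceeded 19.9 CPM in the Amigo2 set or 12.7 CPM in the Ngfr set. *Mgat4c*, a glycosyltransferase gene, had the same order of the sets, with 45.1, 34.6, 47.6 and 56.4 CPM in Ic neurons, 20.6, 21.1, 22.6 and 24.2 CPM in the Pcdh7 set and at most 1.61 CPM in the Amigo2 and Ngfr sets. *Runx1*, a runt-domain transcription factor of Ib and Ic neurons, did not set Ic neurons apart from the Pcdh7 set, with 322, 352, 276 and 269.7 CPM against 327, 251, 302 and 247 CPM, while the Amigo2 set had 64.2, 73.7, 26.2 and 25.5 CPM. *Lypd1*, a modulator of nicotinic receptors, was at 267, 300.5, 176 and 209.8 CPM in Ic neurons and 213, 169, 159 and 172 CPM in the Pcdh7 set, and at most 17.3 CPM in the Amigo2 and Ngfr sets. *Runx1*, *Pou4f1* and *Lypd1* were all detected in 52 of 55, 55 of 60, 78 of 84 and 26 of 27 members. These 4 genes therefore placed the Ic and Pcdh7 sets on one side and the Amigo2 and Ngfr sets on the other, and the Ic set was above the Pcdh7 set in every plate for *Pou4f1*, *Mgat4c* and *Lypd1*.

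Markers of other neurons were not absent. *Calb1*, the calcium buffer calbindin of Ib neurons, stood at 116, 95.8, 465 and 367 CPM in Ic neurons, 111, 159, 735 and 666 CPM in the Pcdh7 set and 15.1, 24.1, 49.7 and 74.9 CPM in the Amigo2 set. It was detected in 88.3% to 100% of the Ic cells of a plate, and on E18.5 plate 1 its mean L was 0.636 in Ic neurons and 0.585 in the Pcdh7 set. *Calb2*, the calcium buffer calretinin of Ia neurons, stood at 193, 212, 639 and 374 CPM in Ic neurons, 254, 412, 1248 and 1288 CPM in the Pcdh7 set and 1097, 1256, 4671 and 4871 CPM in the Amigo2 set. It was uneven among members: their median L was 0.0306, 0.0338, 0.260 and 0.464 on the 4 plates, while the mean L was 0.590, 0.660, 1.04 and 0.888. In each plate the members with a Pcdh7 score above 0.3 had the higher mean L of *Calb2*, by 0.893 against 0.496 on E18.5 plate 1 and 1.23 against 0.995 on P3 plate 1. The type II genes *Prph*, the intermediate filament peripherin, and *Plk5*, a polo-like kinase gene, were at 64.6, 105, 7.50 and 0.889 CPM and 2.81, 1.29, 0.295 and 0.0318 CPM in Ic neurons, against 501, 488, 494 and 428 and 45.7, 23.9, 354 and 666 CPM in the Ngfr set, which held only 4 cells on the second P3 plate. *Gata3*, a zinc finger factor of the auditory lineage, was at 181, 205, 62.2 and 54.1 CPM in Ic neurons and higher in each other set of the same plate.

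**Figure D2:**
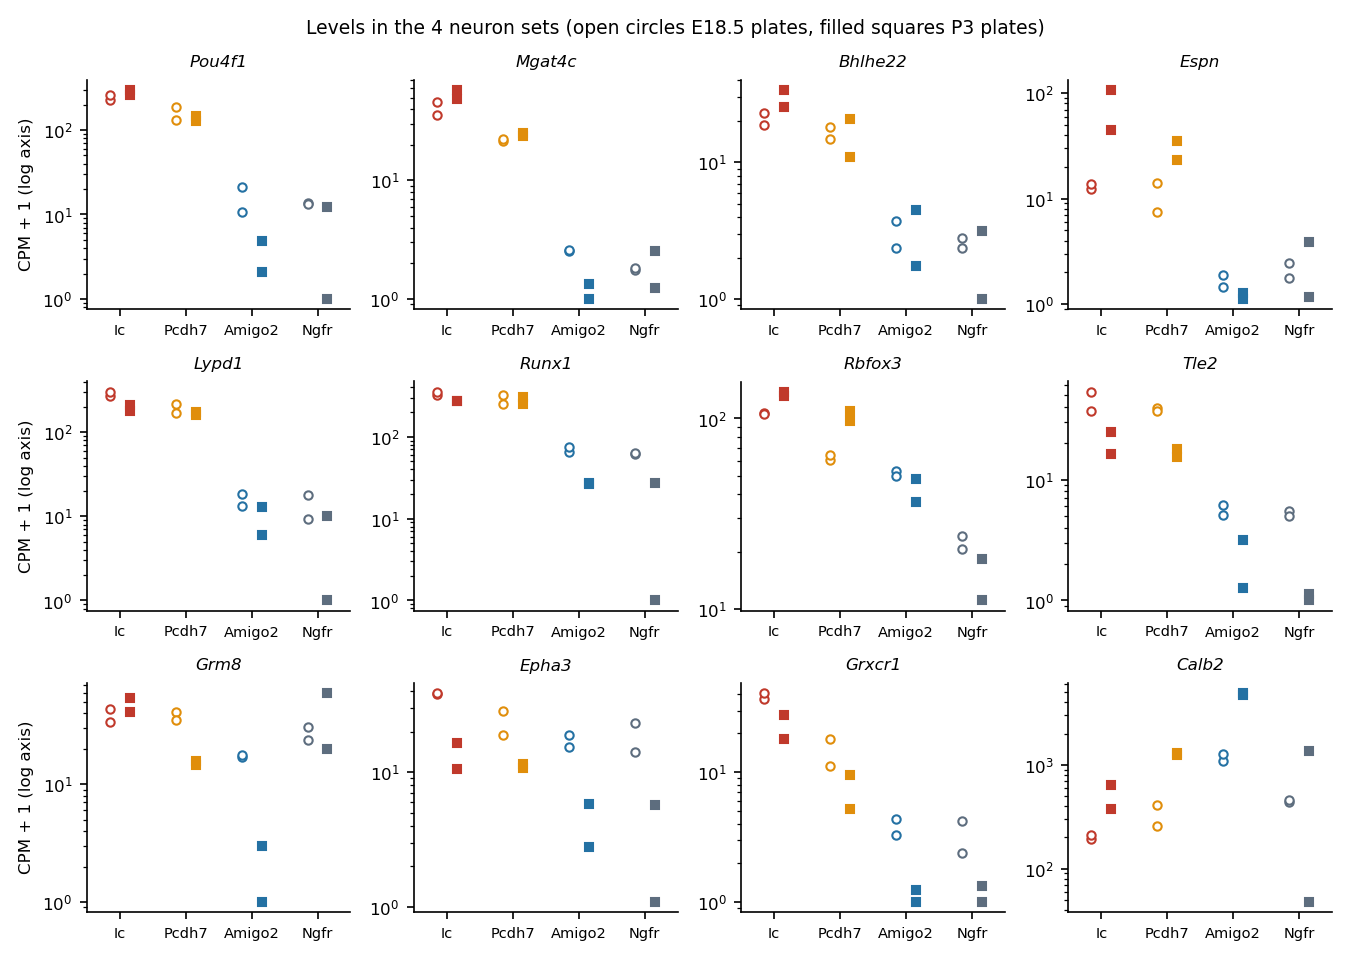
CPM + 1 (vertical log axis) of 12 genes outside the rule in the summed cells of the Ic, Pcdh7, Amigo2 and Ngfr sets, with open circles for the 2 E18.5 plates and filled squares for the 2 P3 plates. *Pou4f1*, *Mgat4c*, *Lypd1* and *Runx1* separate the Ic and Pcdh7 sets from the other sets, *Calb2* is highest in the Amigo2 set, and *Espn* in Ic neurons is higher on both P3 plates than on both E18.5 plates.

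Markers of other cells were present in the Ic wells. The 8 glial markers summed to 2533 and 1743 CPM in Ic neurons at E18.5 and 4543 and 5393 CPM at P3, and none was at 0. In the other 3 sets together they summed to 1977 to 5643 CPM over the plates. The 6 markers of otic mesenchyme summed to 126 to 357 CPM, with *Tbx18* at 0 in 3 plates, and the 4 blood and immune markers to at most 0.0620 CPM. The 5 hair cell markers summed to 11.5 to 25.8 CPM, with *Atoh1* at 0 in all 4 plates and *Pou4f3* in 3.

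Outside the rule, 18 of 10101 genes (0.178%) were at least 2-fold higher in Ic neurons than in the other 3 sets together in all 4 plates, and 52 (0.515%) were at least 2-fold lower. The ratio is log2 of CPM + 1 in the Ic sum over CPM + 1 in the others, and a gene needed 10 CPM on its higher side. The rule chose the cells by this contrast, so no test was made and nothing is read from the counts. Over all genes the median of the mean log2 ratio was -0.01. The mix of the 3 other sets differed between plates, as given with the interaction below, and its part in the ratios was not tested. Against the Pcdh7 set alone, 2 of 10049 genes (0.0199%) were higher and 3 (0.0299%) lower, from which nothing is read either.

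Among the 18, *Grxcr1*, a glutaredoxin-like gene known from hair cell stereocilia (mm10 chromosome 5, 68031835 to 68166398), had the largest smallest ratio over the plates, with 35.6 and 39.7 CPM in Ic neurons at E18.5 and 26.7 and 17.2 CPM at P3 against 4.90 and 6.87 and 3.40 and 2.73 CPM in the other sets (log2 ratio 2.29 to 2.66). *Espn*, an actin-bundling protein of stereocilia, had 11.4 and 12.8 CPM at E18.5 and 44.0 and 105 CPM at P3 in Ic neurons (log2 ratio 1.15 to 2.25). *Avil*, which encodes the actin regulator advillin of sensory neurons, *Fmn1*, which encodes a formin, and *Cit*, which encodes citron kinase, had ratios of 1.15 to 1.89, 1.25 to 1.38 and 1.01 to 1.60. The sum of the hair cell markers given above was in Ic neurons above that of the other sets on E18.5 plate 1 (25.8 against 21.6 CPM) and P3 plate 1 (11.5 against 9.56 CPM). It was below that of the other sets on E18.5 plate 2 (16.9 against 36.4 CPM) and P3 plate 2 (13.3 against 14.04 CPM). In Ic neurons most of this sum was the marker *Myo7a*, with 425, 353, 739 and 419 counts in the order of the plates, where *Otof* had 34, 78, 4 and 0. Without the neurons whose glial marker counts exceeded 0.1%, 1 plate of the *Avil* ratio turned to -0.57 and 1 plate of the *C1qtnf1* ratio to -0.65.

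*Bhlhe22*, a bHLH repressor, was at 17.7, 22.0, 24.4 and 32.7 CPM in Ic neurons, with a log2 ratio of 1.42 to 1.98. *Slit2*, a ligand of Robo receptors, had 44.7, 46.3, 27.1 and 29.6 CPM and a ratio of 1.11 to 1.65. *Cdk14*, a cyclin-dependent kinase, was the most abundant of the named genes, with 243, 263, 343 and 503 CPM and a ratio of 1.18 to 1.59. *Nmrk1*, a kinase of nicotinamide riboside, *Plcd4*, a phospholipase C, *C1qtnf1*, a secreted C1q-related protein, and *Lrrc3b*, a leucine-rich repeat membrane protein, had ratios of 1.26 to 1.62, 1.04 to 1.82, 1.42 to 2.22 and 1.01 to 1.13.

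Most of these genes were not 2-fold higher in Ic neurons than in the Pcdh7 set in every plate. The 2 genes that were also 2-fold higher than in that set in every plate were *Grxcr1* (log2 ratio 1.16 to 1.82) and *C1qtnf1* (1.20 to 1.43). *Pou4f1* had ratios of 0.29 to 1.19 to the Pcdh7 set and *Mgat4c* of 0.68 to 1.19, while *Espn* ranged from -0.16 on E18.5 plate 1 to 1.58 on P3 plate 2. The 3 genes lower than in the Pcdh7 set were *Cxcl10*, a chemokine, *Kcnip4*, a potassium channel interacting protein, and *Tfcp2l1*, a transcription factor, and they are named only because they are so few. *Kcnip4* was at 16.6, 24.1, 14.7 and 10.5 CPM in Ic neurons and 43.8, 49.9, 35.8 and 39.7 CPM in the Pcdh7 set.

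Among the 52 lower genes, several were highest in the Ngfr set. *Th*, tyrosine hydroxylase, the first enzyme of catecholamine synthesis, was at 3.82, 6.26, 0.0775 and 0.0953 CPM in Ic neurons and 229, 190.4, 423 and 1029 CPM in the Ngfr set. *Tnc*, the matrix protein tenascin C, was at 1.23 and 1.10 CPM at E18.5 and at 0 on both P3 plates in Ic neurons, against 183, 72.5, 104 and 298 CPM in the Ngfr set. *Rnase4*, *Plk5* and *Fstl5* followed the same order, and against the Amigo2 and Pcdh7 sets alone they were no longer lower in every plate, with ratios that reached 0.00, 0.18 and 0.11. *Pcdh20*, a protocadherin, *Necab1*, a calcium-binding protein, and *Dok5*, an adaptor of receptor tyrosine kinases, were instead high in both the Amigo2 and the Ngfr sets and close to Ic neurons in the Pcdh7 set. *Necab1* had 16.9, 23.5, 32.0 and 13.02 CPM in Ic neurons, 14.1, 37.9, 42.5 and 26.4 CPM in the Pcdh7 set and 124, 131, 249 and 185 CPM in the Amigo2 set.

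The genes whose L followed the Ic score most closely over neurons, by the mean of 4 within-plate Spearman correlations (125 to 376 neurons a plate, which share a library), were *Calm2* (0.584), *Ostf1* (0.551), *Lypd1* (0.523), *Reep5* (0.521), *Cdk14* (0.509), *Fth1* (0.506), *Pou4f1* (0.502) and *Adcy1* (0.480). These were abundant genes: *Calm2*, a calmodulin gene, stood at 2403, 2727, 4852 and 4505 CPM in Ic neurons and 1244, 1361, 3240.2 and 3444 CPM in the other sets, and *Ostf1*, which encodes an SH3 adaptor, at 419, 435, 842 and 884 against 200.3, 200.4, 409.8 and 550.0 CPM. *Acadl* (-0.418), *Gfra1* (-0.412), *Xpr1* (-0.411) and *Gata3* (-0.411) had the lowest mean correlations, and are named after their values were seen.

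Between E18.5 and P3, 18 of 40 genes of synaptic vesicle release and 10 of 21 calcium-binding proteins rose in Ic neurons, while 32 of 98 guidance and adhesion genes and 17 of 43 transcription factors fell. Counts of the Ic cells of a plate were summed, and the 2 sums of P3 were set against the 2 sums of E18.5 with edgeR's quasi-likelihood test and Benjamini-Hochberg adjustment. This contrast was not the one that chose the cells, and the 28 genes of the rule were left out of the calls. Of 14401 genes, 2316 (16.1%) rose and 2029 (14.1%) fell, so 30.2% were called either way, and the median log2 fold change was -0.04. Leaving out E18.5 plate 1 left 1071 that rose and 560 that fell, leaving out E18.5 plate 2 left 1182 and 628, and 1323 genes were called the same way without each plate in turn. Depth per cell, ERCC share and the sum of the glial markers, all given above, were higher at P3, and their part in the counts was not tested. With each cell thinned to 100000 counts, 2535 genes rose and 2265 fell. The test was also run without neurons above 0.1% glial marker counts, which kept 70 Ic cells (18, 26, 21 and 5 a plate). There, 490 genes rose and 214 fell. Of the 3991 called genes that could be tested there, 3890 (97.5%) had the same direction and 692 were called. These genes were picked by their call in the main fit, and both fits used cells of the same plates. Agreement in direction was therefore favoured in advance, and nothing is read from it.

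The most changed genes were of several kinds. *Hapln1*, a link protein of the hyaluronan matrix around neurons, rose from 1.18 and 0.313 CPM on the E18.5 plates to 149 and 165.8 CPM on the P3 plates (log2 fold change 7.91, SE 0.41, edgeR adjusted p = 0.000336). *Thy1*, a surface glycoprotein of mature neurons, rose from 1.01 and 0.548 to 63.5 and 70.7 CPM (log2 fold change 6.55, SE 0.33, edgeR adjusted p = 0.000307). The 2 stages did not overlap in either gene, from which nothing is read because both were named for a large change. Both were also called without the neurons above 0.1% glial counts (7.02 and 10.07, edgeR adjusted p = 0.00644 for each). *Mlxipl*, the glucose-responsive factor ChREBP, and *Omg*, a myelin-associated glycoprotein also made by neurons, rose by 5.49 and 5.48 on the log2 scale and were called in that fit too. *Mme*, a peptidase gene (7.07), *St3gal6*, a sialyltransferase gene (5.72), and *Ccdc109b*, which encodes a subunit of the mitochondrial calcium uniporter (5.39), rose too, but without the neurons above 0.1% glial counts the call was lost for *St3gal6* (4.76, edgeR adjusted p = 0.106) and *Ccdc109b* (4.13, edgeR adjusted p = 0.093). *Cldn19*, a claudin of Schwann cells, *Ogn*, a matrix proteoglycan, and *Fa2h*, an enzyme of myelin lipids, rose by 6.98, 6.61 and 5.01. *Mme*, *Cldn19* and *Ogn* had too few counts to be tested in the fit with few glial counts, and *Fa2h* had a log2 fold change of 2.38 there (edgeR adjusted p = 0.607). All 10 were called without each plate in turn. The part of glial RNA in these changes was not tested.

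Among the genes that fell, *Igfbp5*, which encodes a binding protein of insulin-like growth factors, went from 60.5 and 85.7 CPM to 2.84 and 1.40 CPM (log2 fold change -4.99, SE 0.40, edgeR adjusted p = 0.000914). *Sorcs3*, a sorting receptor, went from 38.5 and 47.5 to 0.248 and 1.14 CPM and *Nell2*, a secreted neuronal protein, from 55.2 and 59.3 to 2.76 and 0.0953 CPM. The P3 plates were below the E18.5 plates in each of these, without overlap, from which nothing is read because they were named for a large change. *Hif3a* (-7.02), *Igsf9* (-6.35), *Spon1* (-5.26) and *Trp53i11* (-4.56) also fell and kept the call without each plate. *Col6a3* (-5.80) lost it without E18.5 plate 1 (edgeR adjusted p = 0.0608), and *Rxrg* (-5.28) without E18.5 plate 1 (0.058) or plate 2 (0.0841). *Tfap2a* was called (-6.02, SE 1.49, edgeR adjusted p = 0.0253) on a single cell: of its 3323 counts in E18.5 plate 2, 3283 (98.8%) lay in 1 Ic cell, and without that plate its adjusted p was 0.387.

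The genes listed for Ic neurons outside the rule changed in different directions between the stages. Of these 10, *Pou4f1*, *Mgat4c*, *Espn* and *Bhlhe22* were at least 2-fold higher than in the other sets together in every plate, where 0.178% of all genes were. The rule chose the cells by this contrast, so nothing is read from this number. The mean L of *Grm8* was 0.255 in Ic neurons and 0.312 in the Pcdh7 set on E18.5 plate 1. That of *Epha3* was 0.0828 and 0.0870 on P3 plate 1. Both genes were above the Pcdh7 set on the other plates. Of the 10, 2 rose, 3 fell and 5 were not called, where 16.1% of all genes tested rose and 14.1% fell. Their median log2 fold change was 0.33 against -0.04 over all genes. *Espn* rose from 11.4 and 12.8 to 44.0 and 105 CPM (log2 fold change 2.69, SE 0.41, edgeR adjusted p = 0.00482), with both P3 plates above both E18.5 plates, and kept the call without each plate. *Rbfox3*, the neuronal RNA-binding protein NeuN, rose from 106 and 105 to 129.9 and 137 CPM (0.41, edgeR adjusted p = 0.041). *Lypd1* fell from 267 and 300.5 to 176 and 209.8 CPM (-0.48, edgeR adjusted p = 0.0322). *Epha3*, an ephrin receptor, fell from 37.1 and 37.4 to 9.61 and 15.6 CPM and *Tle2*, a corepressor, from 52.0 and 35.7 to 23.5 and 15.2 CPM (-1.50 and -1.10, edgeR adjusted p = 0.0108 and 0.0367). The stages did not overlap in these 5 genes. They were named here as called genes, and the share of all genes without overlap was not counted, so nothing is read from this. *Rbfox3*, *Lypd1*, *Epha3* and *Tle2* each lost the call without E18.5 plate 1 or plate 2. *Lypd1* also lost the call without P3 plate 1 and *Rbfox3* without P3 plate 2. *Pou4f1* (0.27), *Runx1* (-0.23), *Mgat4c* (0.46), *Bhlhe22* (0.60) and *Grm8*, a metabotropic glutamate receptor (0.38), were not called (edgeR adjusted p = 0.127, 0.144, 0.136, 0.1248 and 0.245).

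Of the 18 genes higher in Ic neurons, 6 rose and 3 fell between the stages, and of the 51 tested among the 52 lower ones 3 rose and 21 fell, where 16.1% of all genes tested rose and 14.1% fell. *Plcd4* rose from 21.5 and 16.7 to 93.3 and 114 CPM (2.51, edgeR adjusted p = 0.000914) and *Lrrc3b* from 27.8 and 21.9 to 64.6 and 81.0 CPM (1.63, edgeR adjusted p = 0.00293), both with the call without each plate. *Nmrk1* (0.72) and *Cdk14* (0.81) rose and *Fmn1* (-1.10) and *Slit2* (-0.61) fell, each with the call lost without E18.5 plate 1 (edgeR adjusted p = 0.0752, 0.0981, 0.163 and 0.216). Without plate 2 of E18.5 it was lost for *Cdk14* (0.0702), *Fmn1* (0.0822) and *Slit2* (0.256), and without P3 plate 1 for *Slit2* (0.0737). *Nmrk1* had a log2 fold change of -0.01 without the neurons above 0.1% glial counts.

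Of the 40 genes of synaptic vesicle release, 18 rose and 5 fell, with a median log2 fold change of 0.44. Of all genes 16.1% rose and 14.1% fell. *Vamp1*, a vesicle SNARE, rose from 86.1 and 99.2 to 757 and 1011 CPM (log2 fold change 3.33, SE 0.17, edgeR adjusted p = 0.000307). *Slc17a7*, the vesicular glutamate transporter VGLUT1, rose from 27.0 and 31.1 to 227 and 271 CPM (3.17), and the target SNARE *Snap25* from 1136 and 1203 to 4720.0 and 5062 CPM (2.14). *Sv2c*, a vesicle glycoprotein, rose by 2.76. All 4 kept the call without each plate and without the neurons above 0.1% glial counts. The 5 that fell, *Stx1a*, *Syn3*, *Rab3b*, *Rims2* and *Unc13a*, are named only because they are few, and *Syn3*, *Rims2* and *Unc13a* lost the call without an E18.5 plate (edgeR adjusted p = 0.0578 and 0.105 without plate 1 and 0.112 and 0.239 without plate 2 for the first pair, 0.0575 without plate 1 for *Unc13a*). *Rims2* lost it without P3 plate 2 too (0.0647).

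Calcium-binding proteins leaned the same way, with 10 of 21 up, 3 down and a median of 0.72, against 16.1% up and 14.1% down over all genes. *Vsnl1*, the calcium sensor visinin-like 1, rose from 103 and 107 to 911 and 889 CPM (log2 fold change 3.17, SE 0.10, edgeR adjusted p = 0.000264). *Calb1*, calbindin, rose from 116 and 95.8 to 465 and 367 CPM (2.05), *Calb2* by 1.40, *S100b* by 2.60 and *S100a6* by 2.53, and all kept the call without each plate. *Pvalb*, parvalbumin, whose driver marks the sorted cells, rose from 509.5 and 524 to 1053 and 1837 CPM (1.56, edgeR adjusted p = 0.00478). The 3 that fell were *Hpcal1*, a hippocalcin-like sensor (283 and 298 CPM at E18.5, 83.9 and 40.9 CPM at P3), *Calm3* and *Efcab1*. *Calm3* (-0.39) lost the call without E18.5 plate 1 or plate 2 (edgeR adjusted p = 0.165 and 0.157). *Efcab1*, whose call was lost without E18.5 plate 1 (0.22), had no counts on either P3 plate, at least 28.3-fold lower by a floor of 3 counts over both P3 sums, the floor used for such genes below too.

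Potassium and HCN channel genes split, with 13 of 48 up, 10 down and a median of -0.29, against 16.1% up and 14.1% down over all genes. *Kcnk1*, a tandem-pore leak channel, rose from 26.7 and 27.0 to 282 and 343 CPM (log2 fold change 3.62, SE 0.15, edgeR adjusted p = 0.000307), and *Kcnip3*, a channel-interacting calcium sensor, from 10.8 and 13.3 to 91.7 and 92.8 CPM (3.01). *Kcnf1* and *Kcnv1*, silent channel subunits with under 3 CPM at E18.5, were at 0 at P3, at least 55.1-fold and 17.9-fold lower. *Kcnf1* lost its call without E18.5 plate 1 (edgeR adjusted p = 0.0931) and *Kcnv1* without P3 plate 1 (0.0804) or plate 2 (0.0812), and *Kcnf1* without E18.5 plate 2 and *Kcnv1* without either E18.5 plate had too few counts to be tested.

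Of 30 genes of sodium and calcium channels 5 rose and 8 fell, with a median of -0.47. Over all genes 16.1% rose and 14.1% fell. The number that rose was near that share, so nothing is read from it. All those that rose were sodium channel subunits, among them *Scn2b*, which went from 38.8 and 54.2 to 180.3 and 145 CPM (1.88, edgeR adjusted p = 0.00182), and *Scn1a*, *Scn8a* and *Scn4b*. *Scn4b* had 1 count at E18.5 and 411 at P3, a 186-fold ratio of CPM with a counting interval of 33.1 to 7353, and its adjusted p was 0.0548 without E18.5 plate 2. *Cacna1h*, a T-type calcium channel, fell from 71.3 and 88.9 to 18.7 and 14.9 CPM (-2.18, edgeR adjusted p = 0.00134). The sodium and calcium channel genes that fell were 6 of calcium channels and 2 of sodium channels.

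Among 32 receptors of glutamate, GABA and glycine, 3 rose and 7 fell, with a median of -0.39, where 16.1% and 14.1% of all genes did. *Glrb*, the beta subunit of the glycine receptor, rose from 30.9 and 26.1 to 238 and 309 CPM (3.34, edgeR adjusted p = 0.000336), and *Grin1* and *Gabra2* were the other two, *Grin1* with the call lost without E18.5 plate 1 (0.0516). *Grik3*, a kainate receptor subunit, had 69 counts at E18.5 and 1 at P3, a 152.7-fold ratio with a counting interval of 26.5 to 6118, but lost its call without E18.5 plate 1 (edgeR adjusted p = 0.243) or plate 2 (0.126). *Grm4* fell (-3.21) and lost its call without the same plates (0.206 and 0.243).

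Guidance and adhesion genes fell more often than they rose, with 32 of 98 down, 7 up and a median of -0.49. Over all genes 14.1% fell and 16.1% rose. *Pcdh17*, a protocadherin, fell from 28.4 and 32.7 to 4.25 and 3.27 CPM (log2 fold change -2.94, SE 0.30, edgeR adjusted p = 0.00148). *Cntn4*, a contactin, went from 1.40 and 2.43 CPM to 0 on both P3 plates, at least 61.3-fold lower, with edgeR adjusted p of 0.106 and 0.181 without E18.5 plate 1 and plate 2. *Cdh23*, a cadherin known from hair cell tip links, rose from 0.561 and 0.313 to 11.6 and 11.4 CPM (4.804, edgeR adjusted p = 0.00236), and *Cdh1*, E-cadherin, from 0 and 0.783 to 5.72 and 10.4 CPM, with the call lost without E18.5 plate 1 (0.0547).

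Of 43 transcription factors of the neuron lineages, 17 fell and 3 rose, with a median of -0.92, where 14.1% of all genes fell and 16.1% rose. *Etv4*, an ETS factor, fell from 15.9 and 13.6 to 0.76 and 1.24 CPM (-3.82, edgeR adjusted p = 0.0028) and *Sox4*, a factor of young neurons, from 57.9 and 60.4 to 19.5 and 15.2 CPM (-1.69). *Gata3* fell by 1.65 on the log2 scale. *Bcl11b* fell (-4.15) and lost the call without E18.5 plate 1 (edgeR adjusted p = 0.0895), and *Ebf2*, under 1 CPM at E18.5 and at 0 at P3, was at least 26.97-fold lower and lost it without the same plate (0.255). The 3 that rose were *Maf* (32.4 and 32.7 CPM at E18.5, 97.9 and 93.7 CPM at P3), *Id4*, and *Id2*, which lost the call without E18.5 plate 1 or plate 2 (0.0812 and 0.138).

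Heparan sulfate is the substrate of 2 enzymes of the Ic score, and 30 other genes of its synthesis and core proteins were tested. Of these, 4 rose, 7 fell and 19 were not called, with a median of -0.39, where 16.1% of all genes rose and 14.1% fell. The number that rose was near that share, and nothing is read from it. The glypican *Gpc2* fell from 45.6 and 49.3 to 2.34 and 3.40 CPM (log2 fold change -3.98, SE 0.29, edgeR adjusted p = 0.000752) while *Gpc3* rose from 5.56 and 5.20 to 33.9 and 52.3 CPM (3.08). The syndecan *Sdc1* fell by 2.06 on the log2 scale and lost the call without E18.5 plate 2 (edgeR adjusted p = 0.0565). *Hs3st4*, a sulfotransferase of the family of *Hs3st2*, was at 0 at P3, at least 28.2-fold lower, and lost the call without E18.5 plate 1 (0.181) or P3 plate 1 (0.0502). *Hs3st1* (54.2 and 46.1 CPM at E18.5, 71.3 and 73.8 CPM at P3), *Hs3st5* (50.9 and 53.3, 70.3 and 75.6 CPM) and *Extl2* (106 and 104, 215 and 311 CPM) rose. The call of *Hs3st1* was lost without E18.5 plate 1 or plate 2 (edgeR adjusted p = 0.0899 and 0.179), and that of *Hs3st5* likewise (0.177 and 0.131) and without P3 plate 2 (0.0529). None of the 20 genes of the list with enough counts was counted as higher or lower in Ic neurons than in the other sets, where 0.178% and 0.515% of all genes were, so nothing is read from it.

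Growth factor receptors and neuropeptides had 6 of 31 up, 8 down and a median of -0.33, against 16.1% up and 14.1% down over all genes. The number up was near that share, and nothing is read from it. *Npy*, neuropeptide Y, fell from 90.6 and 73.3 to 7.80 and 5.21 CPM (log2 fold change -3.57, SE 0.27, edgeR adjusted p = 0.000831). *Gfra1*, a receptor of GDNF, and *Kit*, a receptor tyrosine kinase, fell (-2.44 and -1.95), the first with the call lost without E18.5 plate 2 (0.101) and the second without plate 1 (0.0803). Neurofilaments and genes of axon maturation went both ways, with 8 of 31 up, 12 down and a median of -0.02. *Nefh*, the heavy neurofilament, rose from 239 and 197 to 978 and 1154 CPM (2.37, edgeR adjusted p = 0.00044), and *Sncb*, beta-synuclein, by 2.33. *Prph* fell (-4.19), with the call lost without E18.5 plate 2 (edgeR adjusted p = 0.0549).

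Of 17 immediate early and dissociation genes, 10 fell and 1, *Atf3*, rose, with a median of -1.03, and the list summed to 5362 and 3402 CPM in Ic neurons at E18.5 and 1631 and 1701 CPM at P3. The part of dissociation in this was not tested. Of all genes 14.1% fell and 16.1% rose. *Atf3* lost its call without E18.5 plate 2 (edgeR adjusted p = 0.145). *Jun* fell from 532 and 364 to 85.3 and 103 CPM (-2.18, edgeR adjusted p = 0.00119), *Fos* from 1447 and 876 to 323 and 347 CPM (-1.72) and *Btg2* by 2.04 on the log2 scale. *Egr3* fell (-2.39) but lost the call without E18.5 plate 1 (edgeR adjusted p = 0.124) or plate 2 (0.0551). Of the 8 glial markers, those that rose included the myelin gene *Mbp* (198 and 116 to 1928 and 2555 CPM) and *Egfl8*, and *Fabp7* (1767 and 1216 to 404 and 237 CPM) and *Erbb3* fell. *Erbb3* lost the call without E18.5 plate 1 (edgeR adjusted p = 0.0651), and *Egfl8* without plate 1 (0.0531) or plate 2 (0.139). The list had a median of 0.10. In the other sets of the same plates *Mbp* was at 136, 150.3, 1966 and 2616 CPM. The sum of the list was 2533, 1743, 4543 and 5393 CPM in Ic neurons and 1977, 2235, 4598 and 5643 CPM in the other sets. The median glial share of a cell on E18.5 plate 2 was 0.0617% in Ic cells and 0.275% in all other neurons. On the other plates it was 0.239% and 0.238%, 0.435% and 0.447%, and 0.553% and 0.577%. Of 3 mesenchyme markers tested *Pou3f4* fell (-2.40), and of 2 hair cell markers *Otof* (-5.89), both with the call lost without either E18.5 plate (edgeR adjusted p = 0.223 and 0.174, and 0.134 and 0.23). No blood or immune marker had enough counts to be tested.

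**Figure D3:**
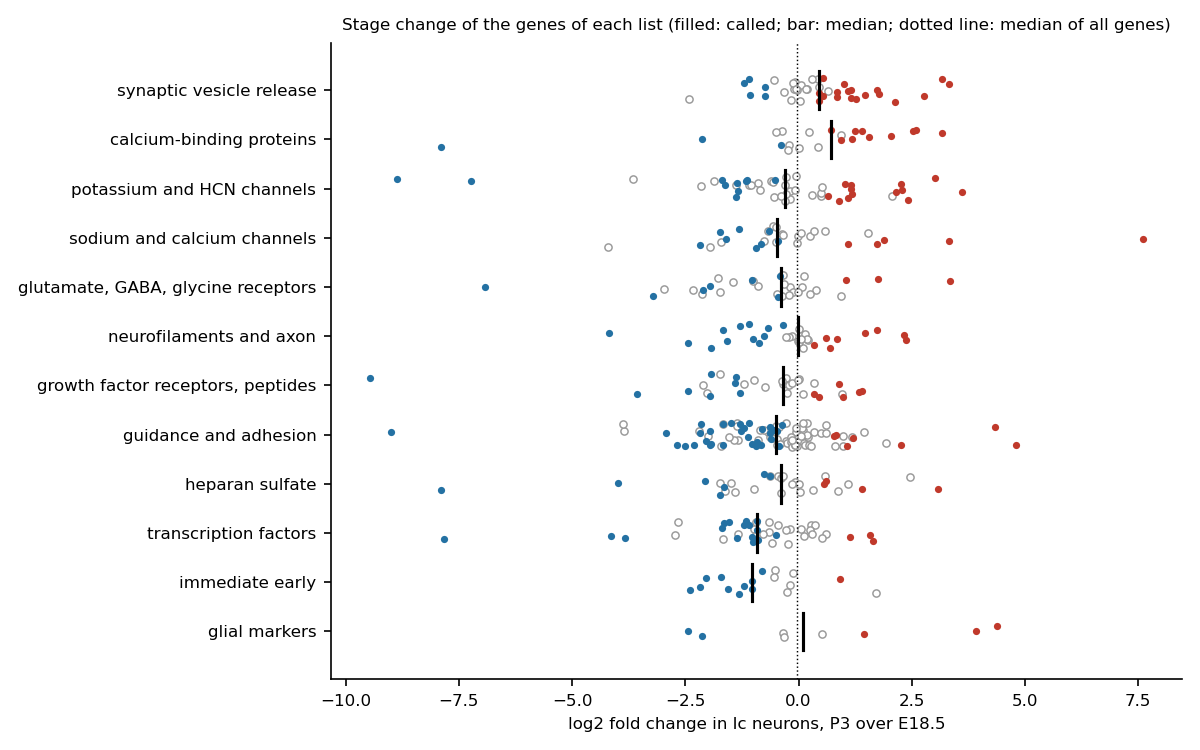
Log2 fold change of P3 over E18.5 in Ic neurons (horizontal axis) for each tested gene of 12 lists, with filled points for genes called by edgeR (red rose, blue fell), open points for those not called, a bar at the median of each list and a dotted line at the median of all genes (-0.04). Synaptic vesicle release and calcium-binding proteins have medians of 0.44 and 0.72, transcription factors and immediate early genes of -0.92 and -1.03.

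Whether a gene changed differently in Ic neurons than in the other sets was tested as the interaction of stage and set, over 8 sums. The other sum of a plate pools 3 sets, and their mix differed between plates. The Amigo2, Pcdh7 and Ngfr sets held 71, 59 and 55 cells on E18.5 plate 1 and 73, 55 and 50 on E18.5 plate 2. On P3 plate 1 they held 113, 83 and 26 cells, and on P3 plate 2 20, 41 and 4. The part of this mix in the differences was not tested. Of 16061 genes, 3 (0.0187%) were called: *Cpne6*, *Rnase4* and *Th*. At an unadjusted p under 0.05 there were 772. With the plate as a block, since both sums of a plate come from the same libraries, 8 genes were called, the same 3 and also *Ckmt1*, *Fth1*, *Hpcal1*, *Pvalb* and *Spp1*. Without E18.5 plate 1 or plate 2 no gene was called, and without P3 plate 1 there were 282.

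*Cpne6*, a calcium-dependent phospholipid-binding copine of neurons, rose in Ic neurons from 162 and 185 CPM to 451 and 447 CPM, while the other sets together had 476 and 456 CPM at E18.5 and 479 and 423 CPM at P3. The difference of the log2 changes was 1.40 (SE 0.15, edgeR adjusted p = 0.0398). The Ic sums were below the others at E18.5 and beside them at P3. By set, the Pcdh7 set had 156, 179, 384 and 393 CPM, near Ic neurons at both stages, and the Amigo2 and Ngfr sets had 699, 619, 544 and 476 and 485, 489, 525 and 435 CPM. Against the Amigo2 and Pcdh7 sets alone the difference was 1.37 (edgeR adjusted p = 0.128) and against all other neurons 1.22 (edgeR adjusted p = 0.0926), and without E18.5 plate 1 or plate 2 it was 1.29 and 1.55 (edgeR adjusted p = 1.00 and 0.766).

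*Rnase4*, a secreted ribonuclease, and *Th* fell in Ic neurons while the Ngfr set held both at P3. *Rnase4* had 228 counts in Ic neurons at E18.5 and 2 at P3, a 252-fold ratio of CPM with a counting interval of 69.0 to 2096, and the Ngfr set had 75.4, 70.1, 252 and 507 CPM. *Th* went from 3.82 and 6.26 to 0.0775 and 0.0953 CPM in Ic neurons, a fall whose own call was lost without E18.5 plate 2 (edgeR adjusted p = 0.103). The differences of the changes were -7.91 for *Rnase4* (SE 0.51, edgeR adjusted p = 0.00243) and -5.28 for *Th* (SE 0.44, edgeR adjusted p = 0.0102). The Pcdh7 set had at most 1.31 CPM of *Th* and 0.0777 CPM of *Rnase4* at P3, and against the Amigo2 and Pcdh7 sets alone neither was called (differences of -3.95 and -2.97 for *Rnase4* and *Th*, edgeR adjusted p = 1.00 for each). Without E18.5 plate 1 or plate 2 the adjusted p of both was 0.0667 and 0.192. Without the neurons above 0.1% glial counts neither was called, with differences of -10.02 for *Rnase4* (edgeR adjusted p = 0.42) and 0.44 for *Th* (1.00), and with cells thinned to 100000 counts *Th* was not called (-4.24, edgeR adjusted p = 0.178).

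Of the 5 genes called with the plate as a block alone, *Hpcal1* had the largest difference, -2.05 (SE 0.13, edgeR adjusted p = 0.00721), against -2.01 without the block. It is named after its values were seen. It fell in Ic neurons as given above, the Pcdh7 set had 299.6, 229, 91.3 and 75.1 CPM, and the Amigo2 set had 379, 353, 491 and 439 CPM. *Pvalb* rose in Ic neurons by less than in the other sets, which went from 247 and 242 to 891 and 1509.8 CPM (difference of the changes -0.83, edgeR adjusted p = 0.0211 with the block). Ic neurons already had the higher level at E18.5.

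**Figure D4:**
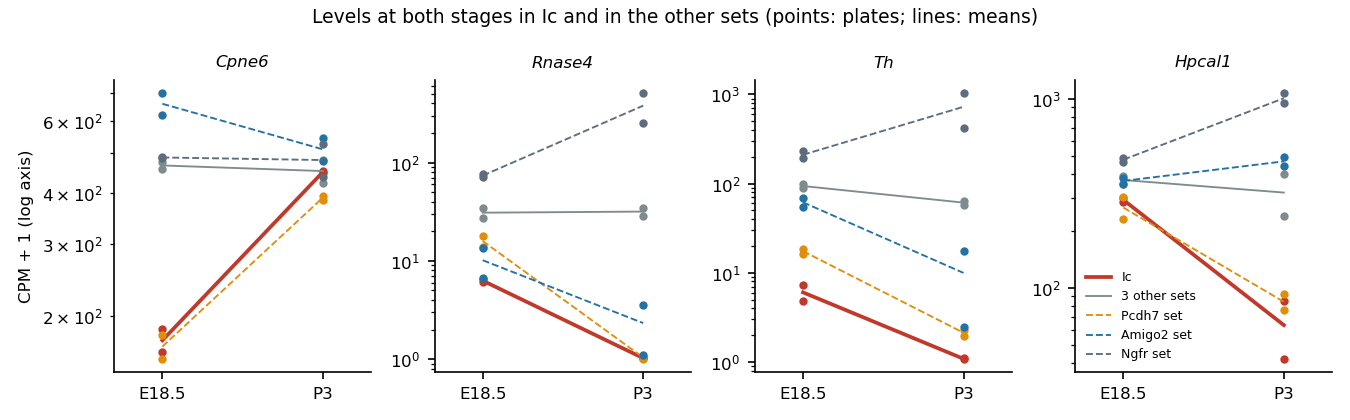
CPM + 1 (vertical log axis) of 4 genes at E18.5 and P3, with a point for each plate and lines through the means of Ic neurons (thick red), the 3 other sets together (grey) and each other set by itself (dashed). *Cpne6* is higher at P3 in Ic neurons and in the Pcdh7 set, and *Rnase4*, *Th* and *Hpcal1* are low at P3 in both of these sets and high in the Ngfr set.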

How the data were processed

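Single sorted cells of 4 plates were analysed. The authors mapped Smart-seq2 reads to mm10 with STAR and deposited read counts per gene and well, not normalized (Scanpy is also named in their processing notes). How strand was treated in counting is not given in the sources used here. All 24489 gene columns and 92 ERCC columns were checked to hold whole counts. A plate of 384 wells that belongs to no sample was not used.

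Cells, neurons and sets were chosen by the rule stated at the start, and the members, the sets and the gene lists were chosen with earlier results of these data known. No doublet caller was run, and the 5% of neurons with the most counts in each plate were left out as an alternative. Neurons were not cleared of glial RNA. Counts of the cells of a set in a plate were summed. Sums were tested with edgeR 4.0.16 in R 4.3.3 (TMM, filterByExpr, glmQLFit, glmQLFTest), with Benjamini-Hochberg adjustment over all genes tested and calls at an adjusted p under 0.05. The study tested cells with a Wilcoxon test, but here the plate is the replicate (n = 2 a stage). DESeq2 1.42.0 was an alternative. In the interaction, Ic and other sums share a plate. The correlation of their deviations from the stage mean was 0.0338 at E18.5 and 0.238 at P3 over 16061 genes. CPM are per 1000000 counts of a sum, scaled by TMM factors over the sums of all sets. Ic against other sets was described without a test. Python 3.11.15 with pandas 2.3.3, numpy 2.4.6 and scipy 1.17.1 was used for the rest.

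Named genes were the 10 that rose and the 10 that fell most among called genes (at least 20 CPM at the higher stage, same direction without each plate). To these were added the 14 highest and 8 lowest in the set contrast, the genes called in the interaction, the 10 Ic genes outside the rule, up to 4 of each other list by size of change, and the 8 genes most like the Ic score. Symbols of clones and predicted genes were counted and not named. Positions come from RefSeq on GRCm38 (mm10).

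On simulated counts with known changes, the stage test recovered 34.3%, 98.5% and 100% of changes of 2-fold, 4-fold and 8-fold over 12583 genes, and the interaction test 9.0%, 71.6% and 100% over 12843 genes. Among genes simulated without a change, 7 were called in the stage test and 9 in the interaction test. The simulation gave all genes the same dispersion and changed only genes above a minimum count. It drew Ic and other sums independently, while in the data they share a plate. A few genes counted in the lists are not reported here by name.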

Additional observations from a re-analysis of the deposited data

Results flagged for a closer look

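*Cpne6* changed between the stages differently in Ic neurons than in the 3 other sets together: its log2 change in Ic neurons exceeded theirs by 1.40 (edgeR interaction test, adjusted p = 0.0398). Its level was higher on both P3 plates than on both E18.5 plates in Ic neurons. The same held in the Pcdh7 set, whose levels lay near those of Ic neurons at both stages, so the rise was not particular to Ic neurons. The same test singled out *Rnase4*, with a difference of -7.91 (adjusted p = 0.00243), and *Th*, with a difference of -5.28 (adjusted p = 0.0102), both lower on both P3 plates than on both E18.5 plates in Ic neurons. With the 4 neurons of the Ngfr set on P3 plate 2 and the 26 on P3 plate 1 taken out with the rest of that set, none of the 3 was called: the difference was 1.37 for *Cpne6* (edgeR adjusted p = 0.128), -3.95 for *Rnase4* and -2.97 for *Th* (1.00 for each).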

How the results depend on the processing

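With 2 plates a stage, changes of 2-fold were recovered in 34.3% of simulated cases for the stage test and 9.0% for the interaction. The same simulations, which also held genes with true changes, gave 7 and 9 false calls. The interaction test called 3 genes in the data. The false calls cannot be set against these 3, because the adjusted p depends on how many genes change. Stage cannot be told apart from plate series. The cause of the changes below was not tested. For the stage test, leaving out neurons above 0.1% glial marker counts gave 490 genes that rose and 214 that fell on 70 Ic cells, and leaving out 1 plate gave 1071 to 2607 and 560 to 3031. DESeq2 (2695 and 2539), no filter, thinning, the other cell filter, scores of 0.5 and 0.1, the top 5% and the glial code left out stayed within 1.5 times. The interaction gave 8 calls with the plate as a replicate block, 69 with DESeq2, 88 without a filter, 6 with thinned cells, 1 without neurons above 0.1% glial counts, 1 without the top 5%, 0 against the Amigo2 and Pcdh7 sets alone, 2 against all other neurons, where *Cpne6* was not called (1.22, edgeR adjusted p = 0.0926), and 0 to 282 without 1 plate. Genes higher and lower in Ic neurons numbered 8 and 30 with a pseudocount of 5 CPM, 65 and 110 at 1.5-fold, 2 and 3 against the Pcdh7 set alone, 20 to 36 and 59 to 62 without 1 plate, and 21 were lower against the Amigo2 and Pcdh7 sets. A minimum score of 0.5 gave shares of 12.2% and 14.8% at E18.5 and P3, and 0.1 gave 21.0% and 25.3%.

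Without the neurons above 0.1% glial counts, the stage change turned to -0.39 for *Mgat4c*, -0.010 for *Bhlhe22* and -0.012 for *Nmrk1*, 1.38 for *Pcdh20*, -0.60 for *Grm8* and -0.25 for *Mbp*, the interaction to 0.44 for *Th*, and the smallest log2 set ratio to -0.65 for *C1qtnf1* and -0.57 for *Avil*. The stage change of *Avil* ran from -0.62 to 0.18 without 1 plate, the last without E18.5 plate 1, and that of *Necab1* from -0.57 without P3 plate 1 to 0.75, with -0.60 at a minimum score of 0.5. Against the Pcdh7 set alone the ratio turned to -0.16 for *Espn*, 0.64 for *Pcdh20*, 0.25 for *Necab1*, 0.045 for *Rnase4*, 0.33 for *Plk5*, 0.64 for *Fstl5* and 0.86 for *Dok5*, and against the Amigo2 and Pcdh7 sets to 0.0029 for *Rnase4*, 0.18 for *Plk5* and 0.11 for *Fstl5*. The other 1295 stage and interaction values of named genes under an alternative kept their direction. Many of these genes were named for their call in the main fit. The 10 that rose and the 10 that fell most also had to keep their direction without each plate. Agreement in direction was therefore favoured in advance, and nothing is read from it.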
